A study of Mus musculus with 16 samples.

Results

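The interferon regulatory factors (IRFs) Irf1, Irf2, Irf3, Irf4, Irf5, Irf7, Irf8 and Irf9 were followed through the splenic dendritic cells of TRIM33-deficient mice. These 8 genes were taken by symbol as the leukocyte members of the family, out of 17128 genes in the table of plasmacytoid dendritic cells (pDCs) and 17721 genes in the table of conventional dendritic cells (cDCs). RNA-seq was run on 16 libraries of sorted spleen cells from C57BL/6 mice aged 6 to 8 weeks. Wild-type (WT) mice carried floxed Trim33 alleles without Cre (Trim33 fl/fl), and conditional knockout (cKO) mice carried in addition Cre driven by the promoter of Itgax (Trim33 fl/fl Itgax-Cre), which encodes CD11c and is active in dendritic cells and in part of the macrophages. Each genotype was represented by 3 pDC, 2 cDC1 and 3 cDC2 libraries. Each library came from the pooled cells of several mice, with more mice per pool for cKO than for WT, so the p-values below describe the spread between these pools. Because the RNA is from sorted bulk cells, fewer cells of a type and less RNA per cell cannot be told apart.

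IRFs are transcription factors that share an amino-terminal DNA-binding domain with a repeat of tryptophans, and they bind GAAA-rich sites in the promoters of interferons and interferon-stimulated genes. Irf3, Irf5 and Irf7 are activated by phosphorylation after nucleic acids are sensed, Irf9 is the DNA-binding subunit of the ISGF3 complex under the type I interferon receptor, and Irf1 and Irf2 compete for the same sites as activator and antagonist. Irf8 and Irf4 bind DNA weakly alone and act with partners such as PU.1, SPI-B and BATF3. In dendritic cells Irf8 is known for its requirement in cDC1 development and its high level in pDCs, Irf4 for its role in cDC2s and their migration, and Irf7 for the rapid interferon response of pDCs.

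The family also stands under the signals it serves, so the promoters of the 8 members were searched for 3 short sites. RefSeq windows from 250 bases before to 50 after each start on GRCm38.p6 were available for all 8 genes, 11 windows in all. The search used the 9-letter cores GAAANNGAA of the interferon-stimulated response element (ISRE), GGAANNGAA of the ETS-IRF composite element bound by PU.1 or SPI-B with Irf4 or Irf8, and TTCNNNGAA of the gamma-activated site (GAS) bound by STATs. Both strands were read, and the GAS core is the same on both. Over 32851 windows of 27025 genes the 3 cores were present in 8.56%, 8.24% and 8.30% of windows, respectively. Among the members the GAS core was found in 3 of 11 windows and the other cores in 1 of 11 each. The matches are printed because the genes that hold them, Irf1, Irf8 and Irf2, are the activator, the lineage factor and the antagonist described in the results. Each window is on the plus strand and reads 5′ to 3′ along the gene, with the match in capitals.
Irf1 GAS core: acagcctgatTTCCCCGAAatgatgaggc
Irf8 GAS core, upstream: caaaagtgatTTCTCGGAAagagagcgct
Irf8 GAS core, downstream: aagagagcgcTTCAGAGAAggcggatttg
Irf2 GAS core: aaattgacttTTCCGAGAAatgatgaaag
Irf2 ISRE core: tggggaagtGAAAATGAAattgactttt
Irf2 ETS-IRF composite core: tggGGAAGTGAAaatgaaattg
The Irf1 match lay at -90 to -82 from the start, in chr11:53769914-53769942. The Irf8 matches lay at -171 to -163 and -153 to -145, in chr8:120736177-120736205 and chr8:120736195-120736223. In the Irf2 window the ISRE core at -241 to -233 overlapped the composite core at -247 to -239, and the GAS core followed at -224 to -216 (chr8:46739495-46739522, chr8:46739495-46739516 and chr8:46739511-46739539). The windows of Irf3, Irf4, Irf5, Irf7 and Irf9 held none of these letters.

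On GRCm38 the genes lie at chromosome 7, 44997648 to 45002848 (Irf3), chromosome 7, 141263183 to 141266499 (Irf7), chromosome 6, 29526130 to 29541869 (Irf5), chromosome 14, 55603985 to 55610030 (Irf9), chromosome 11, 53770014 to 53778374 (Irf1), chromosome 8, 46739745 to 46847458 (Irf2), chromosome 8, 120736358 to 120756694 (Irf8) and chromosome 13, 30749233 to 30766981 (Irf4). Irf7 is transcribed from the minus strand and the other members from the plus strand. Irf4 overlapped no other annotated gene. Irf3, Irf5 and Irf7 overlap Bcl2l12, Tnpo3 and Phrf1 on the opposite strand, Irf9 overlaps Rnf31 and Irf8 overlaps Gm20388 on the same strand, and Irf1 and Irf2 overlap predicted genes. Whether the counting used strand is not stated, so reads in these overlaps could belong to either gene.

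Trim33 fell in the cKO cDC1s and cDC2s. Levels are in TPM, a transcript level that allows for gene length and is scaled to the same total in each library. Trim33 was 15.5 and 18.2 TPM in WT and 7.88 and 7.71 TPM in cKO cDC1s, and 17.2 to 20.6 TPM in WT and 7.13 to 8.07 TPM in cKO cDC2s (log2 fold change -1.02 and -1.17, limma adjusted p = 0.000349 and 0.000126). In pDCs it was 20.6 to 23.8 TPM in WT and 11.7 to 16.5 TPM in cKO (log2 fold change -0.68, limma adjusted p = 0.0301), which did not pass the adjusted p of 0.01 used here. The estimated depth was 18.0 to 20.1 M reads per library, and the member with the fewest reads, Irf4 in cDC1s, still had at least 43.6 reads per kb. The summed level of 10 marker genes was 18633 to 20665 TPM for pDC markers in pDCs against 199.7 to 342 TPM in cDCs, 4188 to 4675 TPM for cDC1 markers in cDC1s against 484.5 to 649 TPM in cDC2s, and 1577 to 2026 TPM for cDC2 markers in cDC2s against 118 to 229 TPM in cDC1s. The cDC2 markers did not set cDC2s apart from pDCs, in which they summed to 2267 to 2550.01 TPM with 8 or 9 of 10 at 1 TPM or more. The pDC and cDC tables were normalised separately, so levels are set side by side across them without a test.

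Irf8 was the leading IRF of pDCs and cDC1s and the least abundant one of WT cDC2s. It was 3656, 3933 and 3563 TPM in WT pDCs, 3410.25, 3665 and 3489 TPM in cKO pDCs, 1754 and 1720.2 TPM in WT cDC1s, and 1928 and 1855 TPM in cKO cDC1s. In cDC2s it was 47.4, 31.5 and 24.2 TPM in WT and 53.2, 42.3 and 89.8 TPM in cKO. All pDC and cDC1 libraries were far above all cDC2 libraries. Among all genes of a library Irf8 ranked between 17 and 25 in pDCs, between 78 and 94 in cDC1s, and between 1750 and 5649 in cDC2s.

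Irf4 ran the other way between the cDC subsets. It was 84.5, 54.0 and 56.9 TPM in WT cDC2s and 33.3, 25.6 and 30.8 TPM in cKO cDC2s, against 4.43 and 6.19 TPM in WT cDC1s and 4.42 and 5.58 TPM in cKO cDC1s. In pDCs it was 46.3, 45.6 and 47.0 TPM in WT and 37.3, 57.1 and 37.8 TPM in cKO. Every cDC2 library was above every cDC1 library, and the pDC libraries lay in the range of the cDC2 libraries. In pDCs Irf4 was still the lowest of the 8 members.

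Of the factors activated by sensing, Irf7, the inducible driver of interferon-alpha transcription, was highest in pDCs. It was 685, 685 and 626 TPM in WT pDCs and 703, 634 and 690.1 TPM in cKO pDCs. In cDC1s it was 178 and 137 TPM in WT and 262 and 248 TPM in cKO, and in cDC2s 112, 182 and 206 TPM in WT and 228, 178 and 251 TPM in cKO. The WT and cKO libraries were apart in cDC1s and overlapped in pDCs and cDC2s. Irf5, which serves Toll-like receptor signals to inflammatory cytokine genes, was highest in cDC1s, at 552 and 507 TPM in WT and 579 and 554 TPM in cKO. It ranged from 293 to 406 TPM in cDC2s and from 259 to 318 TPM in pDCs. Irf3, the ready factor of the first interferon-beta response, ranged only from 78.8 to 132 TPM over the 16 libraries, and Irf9 from 91.6 to 174 TPM. Irf9 ranges overlapped between cDC1s and cDC2s in both genotypes. Irf3 ranges overlapped in WT, and in cKO both cDC1 libraries (83.9 and 89.7 TPM) were below all 3 cDC2 libraries (98.8 to 104 TPM). Between these cKO groups 69.2% of all genes tested did not overlap, and the Irf3 difference did not pass the threshold (limma adjusted p = 0.3225).

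Irf1, an interferon-gamma-inducible activator, was 284, 350.3 and 341 TPM in WT pDCs and 277, 369 and 342 TPM in cKO pDCs. In cDC1s it was 249.6 and 113 TPM in WT and 81.6 and 89.8 TPM in cKO, and in cDC2s 101 to 174 TPM in WT and 110.3 to 126 TPM in cKO. The WT cDC1 libraries differed from each other more than either genotype of cDC2s did within itself on a fold scale. Irf2, the antagonist of Irf1, ranged from 79.8 to 120.4 TPM over all 16 libraries, with ranges that overlapped between the 3 subsets.

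**Figure D1:**
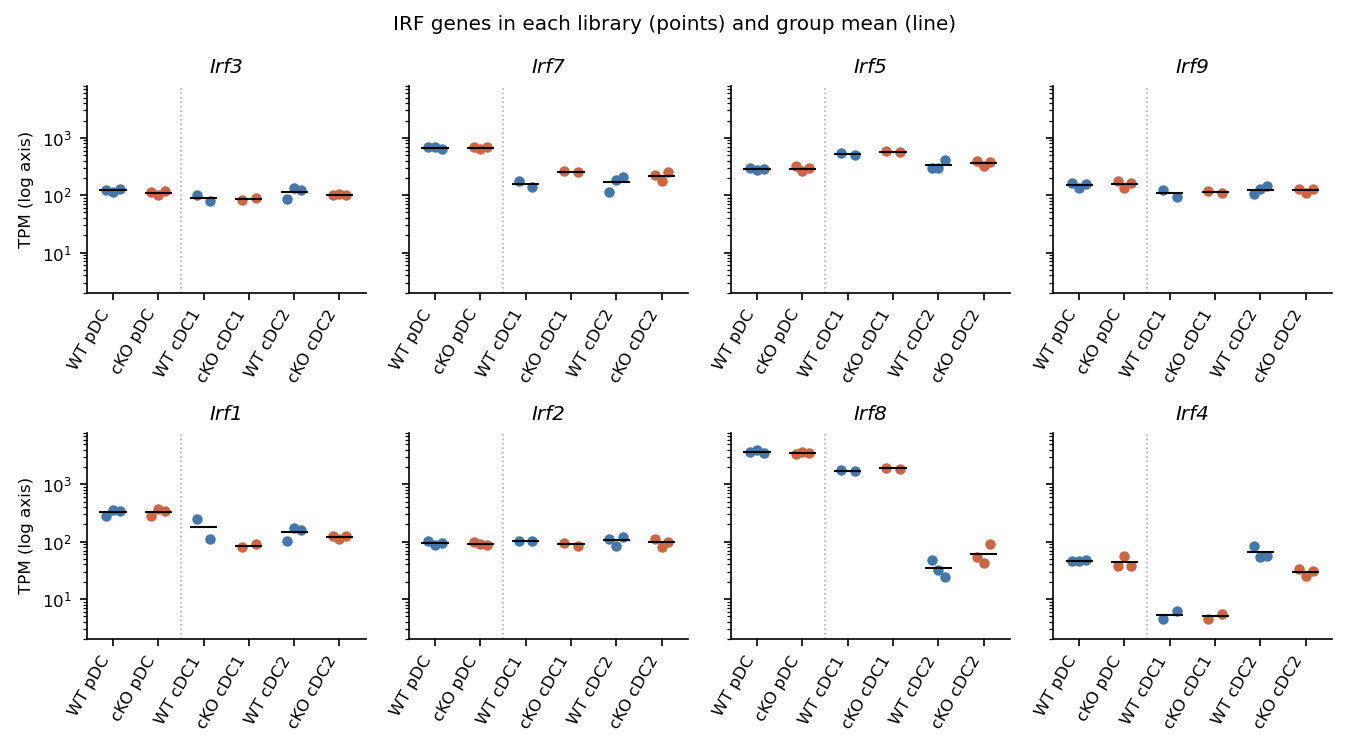
Levels of the 8 IRF genes in TPM on a log axis, with a point for each of the 16 libraries (blue WT, orange cKO), a line at each group mean, and a dotted line between the separately normalised pDC and cDC tables. Irf8 spans from 24.2 TPM in a WT cDC2 library to 3933 TPM in a WT pDC library, whereas Irf3, Irf9 and Irf2 stay within a narrow band.

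The order of the members differed between subsets. In WT pDCs it ran Irf8, Irf7, Irf1, Irf5, Irf9, Irf3, Irf2 and Irf4, and only Irf1 and Irf5 had overlapping ranges among neighbours. In WT cDC1s it ran Irf8, Irf5, Irf1, Irf7, Irf9, Irf2, Irf3 and Irf4, and Irf1 overlapped Irf7, and Irf9 overlapped Irf2. In WT cDC2s Irf5 was first and Irf8 last, and the 6 genes between them, from Irf7 down to Irf4, each overlapped the next. In cKO cDC2s Irf8 and Irf4 had changed places at the low end, with Irf4 last and apart from Irf8, which overlapped Irf2. In cKO cDC1s the order ran Irf8, Irf5, Irf7, Irf9, Irf2, Irf3, Irf1 and Irf4, and Irf2, Irf3 and Irf1 overlapped in turn.

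As a share of the summed TPM of the 8 genes, which does not depend on the scaling of a library, Irf8 took 68.7% ± 1.06 of WT pDCs and 67.4% ± 1.37 of cKO pDCs (SD, n = 3 each). It took 59.8% ± 3.62 of WT and 61.2% ± 0.0382 of cKO cDC1s (SD, n = 2 each). In cDC2s Irf8 took 3.30% ± 1.57 in WT and 5.47% ± 1.77 in cKO, and Irf4 took 6.18% ± 2.41 and 2.68% ± 0.149 (SD, n = 3 each). Irf5 made up the largest share of cDC2s, 30.4% ± 2.87 in WT and 32.5% ± 1.25 in cKO, followed by Irf7 with 15.1% ± 2.83 and 19.6% ± 1.33. The summed level itself was 5132 to 5628 TPM in pDCs, 2758 to 3150.5 TPM in cDC1s and 944 to 1242 TPM in cDC2s.

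**Figure D2:**
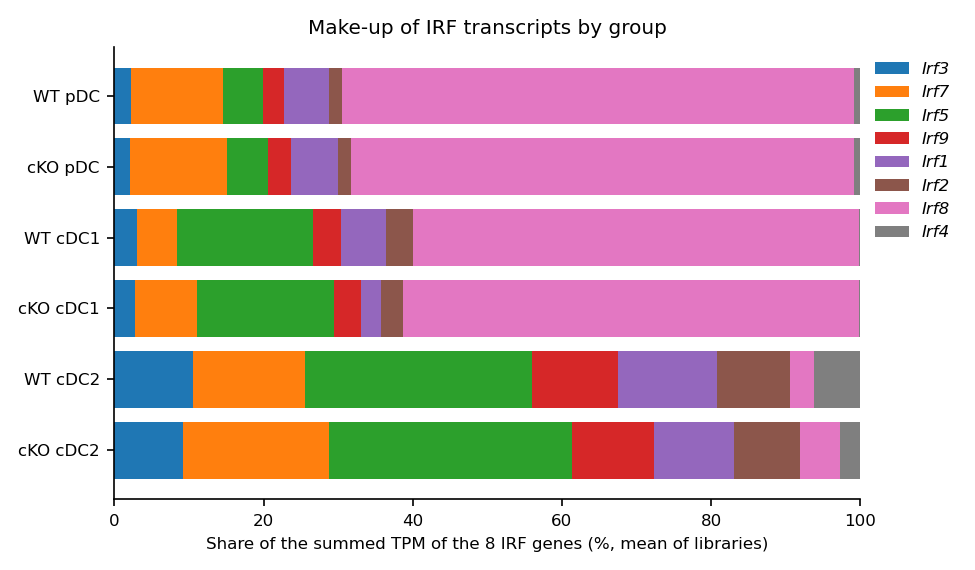
Mean share of each IRF in the summed TPM of the 8 genes, in percent, as a stacked bar for each group. Irf8 fills 59.8% to 68.7% of the pDC and cDC1 bars and 3.30% and 5.47% of the cDC2 bars, where Irf5 is the largest segment.

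The first comparison was between the conventional subsets, which share the 10 libraries of a single limma fit on log2(TPM + 1). A gene was called when its Benjamini-Hochberg adjusted p was at most 0.01 and its log2 fold change at least 0.5 in size. In WT, 3 of 8 members were called between cDC1s and cDC2s, where 31.7% of all genes tested were called. Irf8 was 50.6-fold higher in cDC1s by the ratio of means (log2 fold change 5.67, SE 0.31, limma adjusted p = 2.09e-07), and Irf5 was 1.60-fold higher (0.69, SE 0.14, limma adjusted p = 0.00283). Irf4 in cDC1s was 0.0816 of its cDC2 level (log2 fold change -3.37, SE 0.21, limma adjusted p = 5.32e-07). The library ranges of these 3 members did not overlap, as for 62.3% of all genes tested. In cKO, the same 3 of 8 members were called in the same directions, where 28.3% of all genes were called. There 5 of 8 members had ranges that did not overlap, against 69.2% of all genes tested. Irf8 was then 30.6-fold higher in cDC1s (log2 fold change 4.99), Irf4 was 0.167 of its cDC2 level (-2.36) and Irf5 was 1.57-fold higher (0.65, limma adjusted p = 0.00439). Irf3 differed by -0.34 in WT and was called only without WT cDC2 replicate 1 (-0.52, limma adjusted p = 0.00649). The Irf8 and Irf4 calls held in every leave-one-out fit, but Irf5 lost its call without either WT cDC1 library (limma adjusted p = 0.0282 without replicate 1 and 0.0122 without replicate 2) and, in cKO, without either cDC1 library or cDC2 replicate 2 or 3 (limma adjusted p = 0.0125 to 0.0422) or without the filter on low values (limma adjusted p = 0.0104). The number of members called ranged from 2 to 4 in WT and from 2 to 3 in cKO over these fits.

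The ratio of Irf8 to Irf4 within a library placed the subsets on a single scale. It was 396 and 278 in WT cDC1s and 436 and 332 in cKO cDC1s, 79.0, 86.3 and 75.9 in WT pDCs and 91.5, 64.2 and 92.4 in cKO pDCs. In cDC2s it was 0.561, 0.583 and 0.425 in WT and 1.60, 1.65 and 2.92 in cKO. Irf4 exceeded Irf8 in all 3 WT cDC2 libraries and in no other library. The log2 ratio was 8.46 higher in cDC1s than in cDC2s over the 4 and 6 libraries (two-sided exact permutation test, p = 0.009524, the smallest possible at this size). Between genotypes it rose from a mean of -0.95 to 0.98 in cDC2s, a difference of 1.93 with no overlap, for which 3 libraries against 3 cannot give an exact p below 0.1 (exact permutation p = 0.1). In pDCs the difference was 0.02 (exact permutation p = 1.0) and in cDC1s 0.20 (exact permutation p = 0.6667, smallest possible 0.3333).

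**Figure D3:**
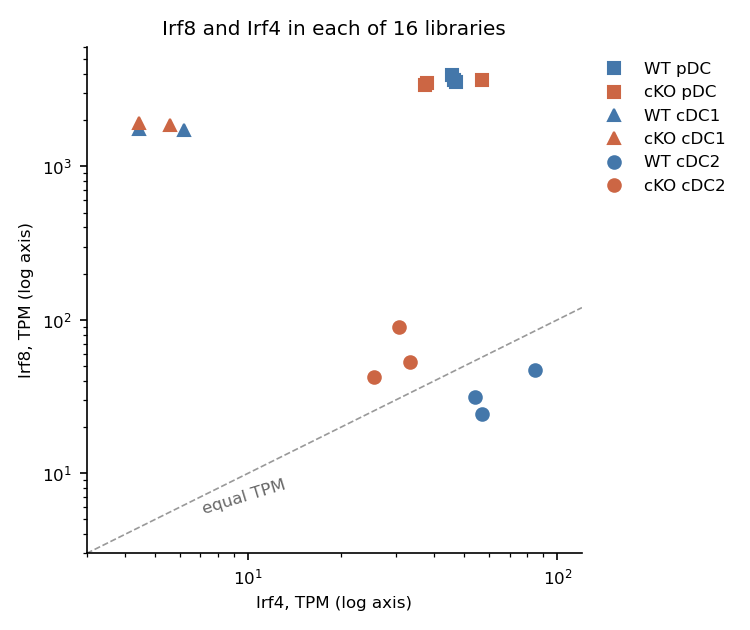
Irf8 against Irf4 in TPM, both on log axes, with a point for each of the 16 libraries and a dashed line where both are equal. The 3 WT cDC2 libraries lie on the Irf4 side of the line and the 3 cKO cDC2 libraries on the Irf8 side, with ratios of 0.425 to 0.583 and 1.60 to 2.92.

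The second question was whether loss of TRIM33 moved the family within each subset. In pDCs, 0 of 8 members were called, where 1.05% of all genes tested were, and 0 of 8 had an unadjusted p under 0.05. All 8 had overlapping WT and cKO libraries, whereas 27.5% of all genes tested did not overlap. The log2 fold changes lay between -0.12 and 0.03, with a median of -0.02 against -0.05 over all genes. For Irf8 the difference was -0.08 (95% interval -0.23 to 0.07, limma adjusted p = 0.540), and for Irf7 it was 0.02 (95% interval -0.13 to 0.17). For Irf4 the interval was wider, -0.45 to 0.26. With the replicate number as a block, which raised the calls over all genes from 119 to 335, the members called stayed at 0 of 8.

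In cDC1s, 0 of 8 members were called, where 22.4% of all genes tested were, and 2 had an unadjusted p under 0.05. Irf7 was 255 ± 9.89 TPM in cKO and 158 ± 28.8 TPM in WT (SD, n = 2 each), a ratio of 1.62 (log2 fold change 0.70, SE 0.26, limma adjusted p = 0.0567). It passed both thresholds in a fit of the cDC1 libraries alone (limma adjusted p = 0.00678) and in no other alternative. With a library left out the Irf7 difference ranged from 0.52 to 0.89. Irf1 was 85.7 ± 5.81 TPM in cKO and 181 ± 96.8 TPM in WT, a ratio of 0.473 (log2 fold change -0.96, SE 0.33, limma adjusted p = 0.0415). The cKO libraries lay wholly above WT for Irf7 and wholly below for Irf1. The Irf1 value rested on WT cDC1 replicate 1, since it was -0.39 without that library (limma adjusted p = 0.314) and -1.53 without WT cDC1 replicate 2 (limma adjusted p = 0.00357). Irf8 differed by 0.12 (95% interval -0.62 to 0.87, limma adjusted p = 0.797), Irf5 by 0.10 (95% interval -0.25 to 0.45) and Irf4 by -0.07 (95% interval -0.57 to 0.44). Of the 8 members, 5 had libraries that did not overlap between genotypes, against 76.2% of all genes tested in this comparison of 2 with 2. The median change of all genes was 0.17 in cDC1s and -0.01 under median-of-ratios scaling, and under that scaling the Irf8 and Irf5 differences turned to -0.08 and -0.10, while Irf7 was 0.51.

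In cDC2s, Irf4 was the single member called of 8, where 7.15% of all genes tested were called. Irf4 fell from 65.1 ± 16.9 TPM in WT to 29.9 ± 3.93 TPM in cKO (SD, n = 3 each), a ratio of 0.459 (log2 fold change -1.08, SE 0.19, 95% interval -1.49 to -0.66, limma adjusted p = 0.00400). All 3 cKO libraries were below all 3 WT libraries, and no other member had ranges apart, where 35.5% of all genes tested did. The direction held in all alternatives, but the call was lost without any single cKO cDC2 library (limma adjusted p just above 0.01 without replicate 1, 0.0165 without replicate 2 and 0.0179 without replicate 3) and without the filter on low values (limma adjusted p = 0.0113). Irf8 was 61.8 ± 24.9 TPM in cKO and 34.4 ± 11.9 TPM in WT, a ratio of 1.80 (log2 fold change 0.81, SE 0.27, 95% interval 0.20 to 1.42), which did not pass the adjusted p (limma, 0.0624). The libraries overlapped, since cKO replicate 2 with 42.3 TPM was below WT replicate 1 with 47.4 TPM. Without cKO cDC2 replicate 3 the Irf8 difference was 0.51 (limma adjusted p = 0.200), and without WT cDC2 replicate 1 it was 1.06 (limma adjusted p = 0.0260). Irf7 differed by 0.43 (95% interval -0.05 to 0.90, limma adjusted p = 0.191) and Irf1 by -0.24. The cDC1 and cDC2 effects were compared in the same fit, and 0 of 8 members differed between them by the rule used, where 2.56% of all genes tested did and 1 member, Irf4, had an unadjusted p under 0.05 (1.01, SE 0.29, limma adjusted p = 0.0528).

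**Figure D4:**
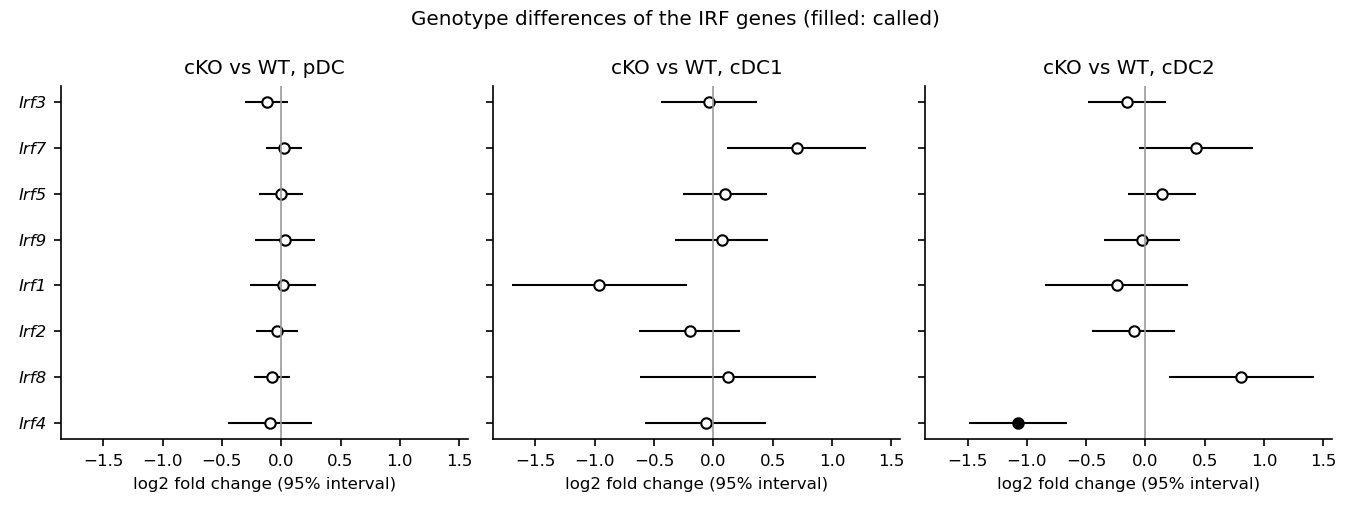
Log2 fold change of cKO against WT on the log2(TPM + 1) scale for the 8 IRF genes in pDCs, cDC1s and cDC2s, with 95% intervals from limma; filled points passed both thresholds. The filled point is Irf4 in cDC2s at -1.08, and all pDC points lie between -0.12 and 0.03.

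Other genes moved in the same libraries. Over all genes tested the genotype calls were 22.4% in cDC1s, 7.15% in cDC2s and 1.05% in pDCs. Among 20 dendritic cell maturation genes, 18 fell in cKO cDC1s and 5 fell in cKO cDC2s, with no call in either direction among the 16 tested in pDCs. Their summed level was 4854 and 3299.7 TPM in WT cDC1 replicates 1 and 2, the order also seen for Irf1, against 983 and 1129 TPM in cKO cDC1s, and it was 3734 to 4437 TPM in WT and 2239 to 2575 TPM in cKO cDC2s. The summed level of 14 immediate-early genes had the opposite order, 8458 and 14363 TPM in WT cDC1 replicates 1 and 2, against 5477 to 5962 TPM in cKO cDC1s, and 11375 to 30160.1 TPM in WT against 7670.2 to 8735 TPM in cKO cDC2s. Of 10 monocyte and macrophage genes, 5 rose in cKO cDC2s, where their sum was 2662 to 3437 TPM against 1317 to 1799 TPM in WT. The summed cDC1 markers in cDC2s were 484.5 to 589.5 TPM in cKO and 572 to 649 TPM in WT, ranges that overlapped. In each library 9 or 10 of the 10 markers were at 1 TPM or more. The Irf8 libraries of cDC2s overlapped too, and the Irf8 difference was not called. Xcr1, a chemokine receptor of cDC1s, was 6.60, 2.73 and 1.97 TPM in WT and 1.71, 2.14 and 5.82 TPM in cKO cDC2s, and in each genotype the library with the most Xcr1 also had the most Irf8. For the whole list this order held in cKO, where replicate 3 had the highest sum, but in WT replicate 3 had the highest sum (649 TPM) and the least Irf8. Xcr1 was singled out after its values were seen. The part of these genes in the Irf1, Irf4, Irf7 and Irf8 values was not tested.

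The wider pathway was read in lists of genes placed around the IRFs. Between WT cDC1s and cDC2s, 13 of 23 interferon-stimulated genes tested were lower and 3 were higher in cDC1s, and in cKO 14 were lower and 5 higher. The share of all genes called was 31.7% in WT and 28.3% in cKO, and it also stands beside the list counts that follow. Oas2, which makes the activator of RNase L, was 0.51 TPM in WT cDC1s and 79.3 TPM in WT cDC2s (log2 fold change -5.64, limma adjusted p = 3.44e-07). Ifit3 was 2.33 and 81.0 TPM (-4.60), Oasl2 3.32 and 78.2 TPM (-4.16), and Oas1a 7.12 and 123 TPM (-3.93). Irf9 and Irf7, whose products act at many of these genes, had no call between the subsets. Of 17 sensing genes, 6 were lower and 1 was higher in WT cDC1s. The exception was Tlr3, the receptor for double-stranded RNA, with 192 TPM against 6.65 TPM (4.65). Ddx58, which encodes RIG-I, was 0.94 and 54.0 TPM (-4.82), Tlr7 4.59 and 81.8 TPM (-3.90), and Slc15a4, a lysosomal transporter needed for Tlr7 and Tlr9 responses, 25.9 and 107 TPM (-2.01).

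Of 12 partners of Irf4 and Irf8, 5 were lower and 1 was higher in WT cDC1s, where 31.7% of all genes tested were called. Spib, the ETS partner of pDCs and cDC2s, was 12.3 TPM in WT cDC1s and 80.03 TPM in WT cDC2s (log2 fold change -2.64), against 896 ± 45.2 TPM in WT pDCs (SD, n = 3). Ets1 was 0.625 and 9.16 TPM (-2.64), Ikzf3 0.425 and 6.19 TPM (-2.31) and Jun 393 and 1368 TPM (-1.77). Jun is also counted among the immediate-early genes above. In cKO, where 28.3% of all genes were called, 3 partners were lower and 1 was higher in cDC1s, Spib again the furthest apart (-2.82). Of 11 interferon receptor and JAK-STAT genes, 3 were higher and 3 lower in WT cDC1s, and Ifnlr1, the lambda interferon receptor chain, was 11.8 TPM against 1.32 TPM in WT cDC2s (2.48).

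In cKO pDCs, where 1.05% of all genes tested were called, none of these lists had a call. The counts were 0 of 17 sensing genes, 0 of 10 receptor and JAK-STAT genes, 0 of 10 partners, 0 of 3 IRF2-binding proteins and 0 of 23 interferon-stimulated genes. Of the last list 13 genes had an unadjusted p under 0.05, and its median log2 fold change was 0.31 beside -0.05 over all genes tested. With the replicate block 5 of the 23 interferon-stimulated genes rose (limma adjusted p = 0.00198 to 0.00683). They were Oas2 by 0.92, Oasl2 by 0.62, Usp18 by 0.58, Isg15 by 0.53 and Ifit2 by 0.52. Of the sensing list Cgas, the cytosolic DNA sensor, rose by 0.97 in that fit (limma adjusted p = 0.00644). The block called 335 of 11299 genes tested, 260 of them higher, and its pairing was read from these same values. Under median-of-ratios scaling 1 of 17 sensing genes was called, higher in cKO, beside 142 of 11299 genes tested. The summed level of 8 T cell genes was 76.3 to 102.8 TPM in the cKO and 33.0 to 46.9 TPM in the WT pDCs. That of the 5 plasma cell genes in the table was 255 to 294 TPM in the cKO and 118 to 147 TPM in the WT pDCs. Of these genes 3 or 4 were at 1 TPM or more in a pDC library, and Mzb1 was the single call (log2 fold change 1.12). The part of both sums in these values was not tested.

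In cKO cDC1s 22.4% of all genes tested were called, 1806 of 11411 higher and 749 lower, and the list counts that follow stand beside this share. There 6 of 23 interferon-stimulated genes rose and 1 fell, with a median of 0.30 beside 0.17 over all genes. Oas3 was 10.5 TPM in cKO and 3.22 TPM in WT (log2 fold change 1.47), Cmpk2 8.23 and 2.37 TPM (1.45), Oas1a 17.2 and 7.12 TPM (limma adjusted p = 0.00295) and Xaf1 22.0 and 10.6 TPM (0.99). The gene that fell was B2m (-0.85). The summed level of the list was lower in cKO, 5598 and 6114 TPM against 8893 and 7677 TPM in WT cDC1s. Under median-of-ratios scaling 3 rose and 1 fell, with a list median of 0.11 where that of all genes was -0.01. Of 17 sensing genes 3 rose, Cgas by 1.07, Sting1, the adaptor under it, by 1.04 and Ddx58 by 0.72. Sting1 was 88.4 TPM in cKO and 42.5 TPM in WT cDC1s (limma adjusted p = 9.71e-05). Of 11 receptor and JAK-STAT genes 3 fell, and Ifnlr1 was 1.28 ± 0.092 TPM in cKO against 11.8 ± 0.163 TPM in WT (SD, n = 2 each), a level close to that of both cDC2 groups (log2 fold change -2.49, limma adjusted p = 1.97e-05). Ifngr1, the ligand-binding chain of the interferon-gamma receptor whose signal induces Irf1, was 439 TPM in cKO and 887 TPM in WT (-1.01, limma adjusted p = 7.49e-05), and Il10rb fell by 0.60. Of 12 partners, Junb fell by 1.41 and Tcf3 rose by 0.51, and of 3 IRF2-binding proteins Irf2bpl rose by 0.78. Junb is also counted among the immediate-early genes above. Over 9 other settings that left out no library, Cgas, Sting1, Ifnlr1, Ifngr1, Cmpk2 and Oas1a kept their calls in all 9. Il10rb and B2m kept theirs in 8. Junb and Irf2bpl kept theirs in 6, Oas3 in 5, Ddx58 and Xaf1 in 4 and Tcf3 in 2, with the direction the same in all 9.

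In cKO cDC2s the calls were fewer, in these lists and over all genes tested, of which 7.15% were called. Of 12 partners 2 fell, Ets1 from 9.16 to 2.30 TPM (log2 fold change -1.62, limma adjusted p = 3.02e-05) and Ikzf3, an Ikaros family factor, from 6.19 to 1.58 TPM (-1.46, limma adjusted p = 0.00118). Jak2 fell by 0.61, the single call of 11 receptor and JAK-STAT genes, and Tlr7 fell from 81.8 to 41.9 TPM (-0.95), the single call of 17 sensing genes. Of 23 interferon-stimulated genes 1 rose, the chemokine gene Cxcl10, from 29.0 to 50.2 TPM (0.77). Over 8 other settings that left out no library, Cxcl10 kept its call in 5 and the other 4 genes in all 8. Fits with a library left out are not part of these counts. The effects in cDC1s and cDC2s, which come from a shared fit, differed by the interaction test for Ets1 (1.84), Ifnlr1 (-2.45), Ifngr1 (-0.81) and Sting1 (0.97), and for 0 of 23 interferon-stimulated genes. They differed for 2.56% of all genes tested.

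**Figure D5:**
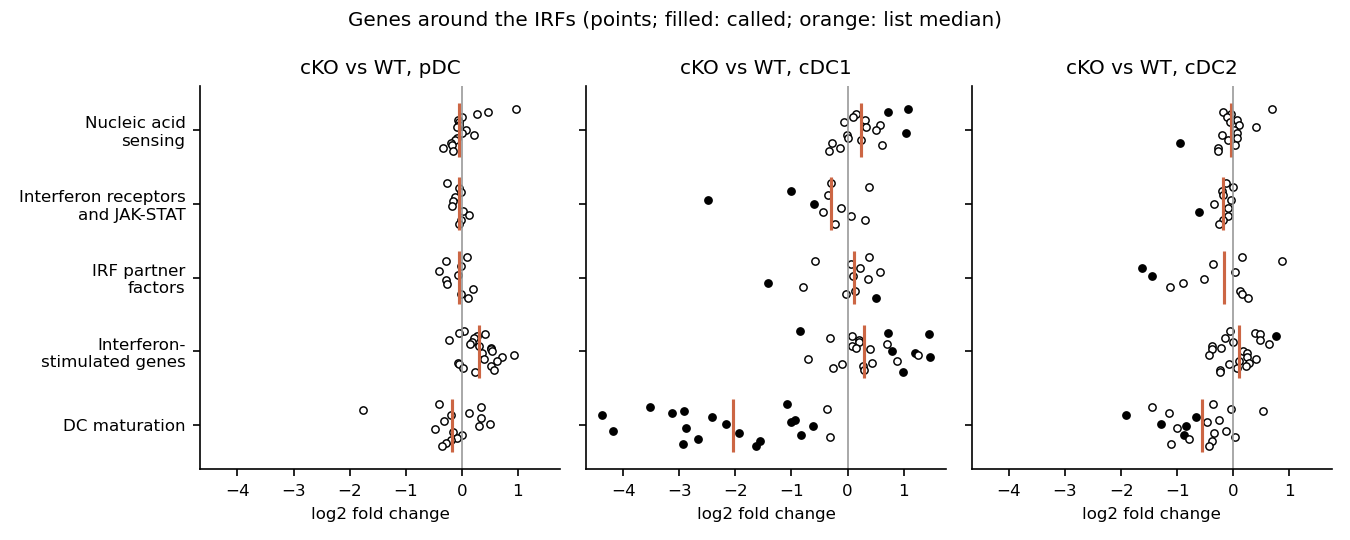
Log2 fold change of cKO against WT for the genes of 5 lists around the IRFs (sensing, receptors and JAK-STAT, partners, interferon-stimulated genes, maturation) in pDCs, cDC1s and cDC2s; filled points were called and the orange mark is the list median. Filled points are most frequent in the cDC1 panel, where all 20 maturation genes lie below 0 and 18 of them were called.

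The genes whose pattern was most like that of Irf8 over the 10 cDC libraries were Naaa (Pearson r = 0.999 on log2(TPM + 1)), Gng12 (0.997), Serpinb8 (0.996), Mpeg1 (0.995) and Serpinf1 (0.995), out of 8199 genes with a mean of at least 10 TPM. Naaa was 61.1, 42.5 and 38.3 TPM in WT and 72.3, 58.8 and 99.7 TPM in cKO cDC2s, the same order of libraries as Irf8, and it is also among the cDC1 markers used above. For Irf4 they were Rest (0.992), Il1r2 (0.991), I830077J02Rik (0.991), Camkmt (0.990) and Lysmd2 (0.990). Over the 6 pDC libraries, out of 8186 genes, they were Zxdb (0.986), Brf1 (0.974), Ypel5 (0.971), Sidt2 (0.967) and Irf2bp2 (0.967) for Irf8, and Lsm14a (0.997), St8sia4 (0.996), Trpc4ap (0.952), Ptdss1 (0.948) and Usp22 (0.938) for Irf4. The cDC values mostly follow the split into cDC1s and cDC2s, and the pDC values rest on 6 libraries in which neither gene differed between genotypes beyond its spread, so they are given as a description.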

How the data were processed

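Total RNA of sorted splenic pDCs, cDC1s and cDC2s was sequenced on BGISEQ-500 (single-end, 50 bases). The authors filtered reads, mapped them to mm10 with HISAT2 2.0.4 and to transcripts with Bowtie2 2.2.5, and estimated gene levels with RSEM 1.2.12. The deposited values were TPM and FPKM per library, in a pDC and a cDC table. Which transcript release was used is not given in the sources used here.

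The files hold no counts, so DESeq2, which the authors applied, was not used, and limma 3.58.1 (trend) was run on log2(TPM + 1) for genes with a mean of at least 1 TPM, 11299 in pDCs and 11411 in cDCs, with Benjamini-Hochberg adjustment and the study's thresholds (0.01 and 0.5). Fold changes on this scale understate those of low genes. The share of all genes with an unadjusted p under 0.05 was not taken, so counts at that limit stand without a share. The fits were tested on simulated data. Depth was estimated from the spacing of low FPKM values. Alternatives were FPKM, other scalings, pseudocounts and filters, single subsets, replicate blocks and each library left out. In pDCs same-numbered libraries deviated together (r = 0.310, 0.392 and 0.206), and the numbers were taken to pair them. The labels state no such pairing, so the pDC block rests on a pairing read from these same values. Up to 4 called genes per pathway list and comparison were named by size of change, and likeness was ranked by Pearson r. The members, lists and tests were chosen with earlier results of these data known.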

Additional observations from a re-analysis of the deposited data

How the results depend on the processing

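Under every alternative tried, the Irf8 and Irf4 differences between cDC1s and cDC2s kept their calls, and Irf4 in cKO cDC2s kept its direction (limma adjusted p = 0.00364 to 0.0179). The number of members called stayed at 0 in pDCs. In cDC1s it was 1 in a fit of that subset's libraries alone (Irf7, limma adjusted p = 0.00678) and 1 with an adjusted p of 0.05 and no fold limit (Irf1, limma adjusted p = 0.0415), and 0 to 1 with a library left out. Over all genes tested, the fit of that subset alone called 2746 of 11141, and the looser rule called 4522 of 11411. In cDC2s the number of members called was 0 without the filter on low values and 0 to 1 with a library left out. Directions of small differences turned with scaling. In pDCs Irf5 was 0.027 with FPKM and 0.039 under median-of-ratios scaling, and Irf2 0.0071 under the latter. In cDC1s Irf5 was -0.10, Irf9 -0.13 and Irf8 -0.075 under median-of-ratios, and Irf9 -0.082 under quantile normalization. In cDC2s Irf9 was 0.013 with FPKM. For the difference of the cDC1 and cDC2 effects, Irf3 was -0.097 under median-of-ratios and -0.058 under quantile normalization, and Irf9 -0.0081 with FPKM, -0.12 under median-of-ratios and -0.052 under quantile normalization. Between WT cDC1s and cDC2s, FPKM, median-of-ratios, quantile normalization and the replicate block gave 0.023, 0.14, 0.021 and 0.096 for Irf7 and 0.055, 0.17, 0.087 and 0.055 for Irf2. With a library left out, signs turned within these ranges. In pDCs they were Irf7 -0.021 to 0.068, Irf5 -0.071 to 0.078, Irf9 -0.051 to 0.14, Irf1 -0.079 to 0.13, Irf2 -0.084 to 0.028, Irf4 -0.29 to 0.0055 and the log2 Irf8 to Irf4 ratio -0.067 to 0.20. In cDC1s they were Irf3 -0.21 to 0.14, Irf9 -0.14 to 0.29, Irf4 -0.27 to 0.14 and the ratio -0.057 to 0.45, and in cDC2s Irf9 -0.15 to 0.074 and Irf2 -0.26 to 0.038. For the difference of effects they were Irf3 -0.051 to 0.30, Irf5 -0.19 to 0.041, Irf9 -0.12 to 0.31 and Irf2 -0.24 to 0.060, between WT subsets Irf7 -0.31 to 0.14, Irf1 -0.33 to 0.81 and Irf2 -0.17 to 0.097, and between cKO subsets Irf2 -0.25 to 0.00029. The causes were not tested.

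Over all genes, calls in cDC1s were 2555 (1806 higher, 749 lower), against 2109 (995 and 1114) under median-of-ratios scaling, and in cDC2s 816 (410 and 406), against 913 (543 and 370) with FPKM. Calls of the difference of effects were 292 (138 and 154), against 366 (101 and 265) under median-of-ratios. Calls between WT subsets were 3612 (1241 and 2371), against 3520 (1765 and 1755). Leaving out a library moved these counts more. In pDCs they were 12 to 97 against 119 (12 without WT replicate 3, 40 without cKO replicate 2 and 54 to 57 without cKO replicate 1 or WT replicate 1 or 2). In cDC1s they were 800 to 2888 (800 and 1111 without cKO cDC1 replicate 1 and 2, 1118 without WT cDC1 replicate 1). In cDC2s they were 316 to 907 (316 and 448 without cKO cDC2 replicate 3 and 1, 507 and 530 without WT cDC2 replicate 2 and 1, 527 and 531 without cKO cDC1 replicate 1 and 2). For the difference of effects they were 77 to 282 (77 and 94 without cKO cDC1 replicate 1 and 2, 97 without WT cDC1 replicate 1, 116 without cKO cDC2 replicate 3). Between subsets they were 2649 to 3575 in WT and 1997 to 3453 in cKO (1997 and 2126 without cKO cDC1 replicate 1 and 2). The shares of all genes called that stand beside the members vary accordingly. Same-numbered cDC1 libraries deviated in opposite directions (r = -0.233), and a block gave 1890 calls, or 2091 with the numbers crossed, a pairing chosen after seeing the data. In cDC2s the numbers marked no pairing (r = -0.249, 0.253 and -0.165), and a block gave 356 calls and, for the difference of effects, 95. The replicate block changed no member's call. With 2 libraries per genotype the cDC1 intervals are wide.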
